A study of Drosophila melanogaster with 17 samples.

Results

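The genes described here encode the proteins of the mitochondrial ribosome. They are the 72 rows, of 14659 in the deposited expression matrix, whose symbol begins with mRpL or mRpS followed by a digit. Of these, 46 belong to the large subunit and 26 to the small one. A mean over the 4 groups of 1 FPKM (fragments mapped, scaled to transcript length and library size) or more was reached by 12 genes, called measured below, of which 7 are large-subunit and 5 small-subunit genes. The value just inside that limit was 1.03 FPKM for mRpL24, and the value just outside it was 0.994 FPKM for mRpL51.

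Mitochondria keep a ribosome of their own, distinct from the cytosolic one. It translates only the few messenger RNAs made from the mitochondrial genome, which encode core subunits of the respiratory chain and of ATP synthase. Its ribosomal RNAs come from the mitochondrial genome, while its proteins are encoded in the nucleus, made in the cytosol and imported, so that both genomes have to be expressed for respiration. In the fat body, the larval counterpart of liver and adipose tissue, mitochondria burn fat and supply precursors for lipid synthesis.

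RNA was sequenced from fat bodies of female Drosophila melanogaster in the wandering phase of their last instar, in 17 libraries. From hatching on, the larvae ate food with sucrose at 0.15 M, the control diet, or at 0.7 M, called high sugar here. All of them carried cgGAL4 and UAS-Dcr2, the wild-type larvae in the VDRC w1118 background and the others with the RNA interference construct UAS-ChREBPi(52606). That construct targets the sugar-responsive transcription factor ChREBP (Mondo or Mio in flies), and some of the labels call these larvae mutants. Wild type is represented by 6 libraries per diet, and the knockdown by 3 on control food and 2 on high sugar. The cgGAL4 driver acts in the fat body and, from other fly work, in hemocytes, so the knockdown is not a whole-animal one. The labels call the libraries biological replicates without saying what separates them, so the p-values measure the spread between these libraries.

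Replicates 1 to 3 of each group carried 1 barcode per group and hold every knockdown library (the shared set, 11 libraries). Wild-type replicates 4 to 6 carried a barcode each (the own set, 6 libraries). The targeted gene, dmondo, was listed in wild type at 1.1 to 1.83 FPKM without and at 2.03 to 3.01 FPKM with high sugar. In the knockdown its range was 0.310 to 0.535 FPKM on control food, and the 2 high-sugar libraries had 0.187 and 0.286 FPKM. Library totals ran from 29778.6 to 62263.5 FPKM, and depth is unknown. All 7 fat body markers, among them the larval serum proteins, were above 0 in both knockdown high-sugar libraries. Their summed value was 2369 and 2727 FPKM there, against 5269 to 12236 FPKM in the other 15 libraries.

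Most of these genes were weakly expressed. The mean over the 17 libraries was below 0.1 FPKM for 6 genes, between 0.1 and 1 FPKM for 58, and at least 1 FPKM for 8. A value above 0 in at least 1 library was listed for 71 of the 72, and 36 were above 0 in all of them. The gene mRpL53 was listed at 0 in every library. All of its annotated exonic bases also belong to CG33155 on the same strand, a feature that counting can split either way. For mRpL9 and mRpL16 no library exceeded 0.01 FPKM. In all, 42 of the 72 genes share exonic bases with another annotated gene, 3 of them on the same strand, and whether strand was used in the authors' quantification is not given in the sources used here.

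The summed value of the 72 genes was about 2 times as high in the ChREBP knockdown on high sugar as in any other group. On control food the wild-type sum was 38.8, 42.0 and 36.4 FPKM in the shared set and 22.2, 23.4 and 30.9 FPKM in the own set. On high sugar the wild-type libraries stood at 37.9, 39.9 and 44.1 FPKM in the shared set and at 28.7, 23.4 and 25.5 FPKM in the own set. Every own-set library was thus below every shared-set library, on either diet. The knockdown on the control diet gave 37.0, 36.6 and 39.4 FPKM, inside the range of the shared-set wild type. The knockdown on high sugar gave 67.0 and 79.1 FPKM, above the other 15 libraries.

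The group means were 32.3 ± 8.19 FPKM (SD, n = 6) in wild type on the control diet, 33.2 ± 8.53 FPKM (SD, n = 6) in wild type on high sugar, 37.6 ± 1.54 FPKM (SD, n = 3) in the knockdown on the control diet and 73.1 ± 8.55 FPKM (SD, n = 2) in the knockdown on high sugar. On high sugar the knockdown mean was 2.20 times the wild-type mean, and 1.80 times that of the shared-set libraries alone. Within the knockdown, the mean on high sugar was 1.94 times that on the control diet. In wild type the corresponding ratio was 1.03 over all libraries, 1.04 within the shared set and 1.01 within the own set. As a share of each library's total, the genes made up 0.0576 to 0.0975% in the other 15 libraries and 0.12 and 0.127% in the knockdown on high sugar. In bulk tissue, a change in the mix of cells and a change in RNA per cell cannot be told apart.

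**Figure D1:**
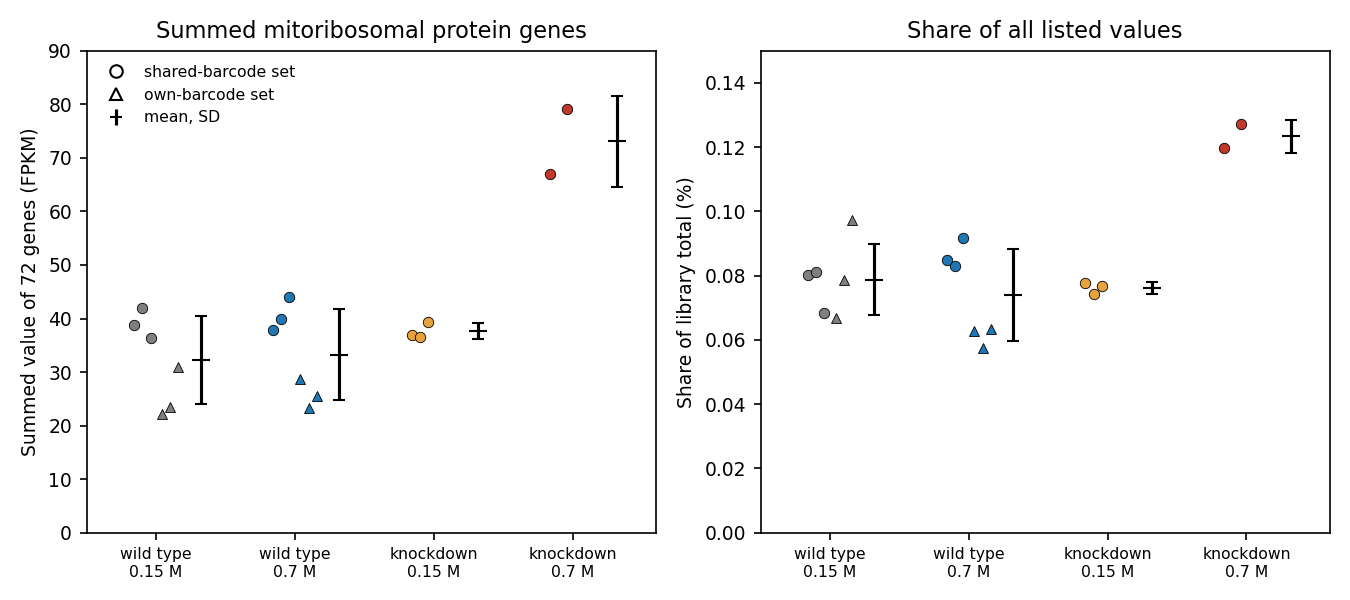
Summed value of the 72 mitochondrial ribosomal protein genes in each library, in FPKM (left) and as a percentage of the library total (right), by genotype and sucrose concentration. Circles are shared-set and triangles own-set libraries, and black bars show the group mean and SD; both knockdown libraries on 0.7 M sucrose lie above the other 15 on both scales.

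The difference was present in both subunits. The large-subunit sum averaged 19.2 ± 5.70 FPKM (SD, n = 6) in wild type on high sugar and 41.8 ± 4.21 FPKM (SD, n = 2) in the knockdown, a ratio of 2.18. The small-subunit sum averaged 14.1 ± 2.93 FPKM (SD, n = 6) and 31.3 ± 4.33 FPKM (SD, n = 2), a ratio of 2.22. Genes numbered like a bacterial counterpart, 42 in all, and the 30 with higher numbers, which mostly encode proteins particular to mitochondrial ribosomes, stood at 2.13 and 2.32 times the wild-type sum. The wild-type means behind these ratios take in the own-set libraries, whose sums over all the genes were lower and which have no knockdown counterpart. The 12 measured genes held between 32.6 and 48.1% of the summed value in any library. Only 7 of them average 1 FPKM or more over the other 3 groups, so 5 count as measured through the knockdown on high sugar. No test was made of these sums.

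Single genes were tested with limma on log2(FPKM + 1) across every gene averaging 1 FPKM or more in the 17 libraries, with the barcode set as a term and p-values adjusted over all 2383 tested genes. Only 8 of the 72 genes passed that filter, and 7 would have passed without the knockdown high-sugar libraries; mRpL30 passed through them. The same test without a filter, over 9696 genes, covered 71 of the 72 and is given beside it. Log2 changes on this scale understate the change of weakly expressed genes, which most of these are.

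In wild type, high sugar changed none of them detectably. Of the 8 genes in the filtered test 0 were called in limma at an adjusted p under 0.05, and 0 at an unadjusted p under 0.05, where 9.44% of all tested genes were called higher and 6.08% lower. Without the filter 0 of 71 were called and 4 had an unadjusted p under 0.05, against a background of 2.65% higher and 1.64% lower. The smallest p belonged to mRpL38, at a log2 change of 0.14 ± 0.04 (SE, adjusted p = 0.072 in limma). No gene of the 71 had wild-type diet groups that did not overlap. The largest changes among the measured genes of the filtered test were 0.30 ± 0.30 (SE) for mRpS31 and -0.12 ± 0.13 (SE) for mRpS21, with adjusted p-values of 0.53 and 0.55 in limma. In the shared set alone that of mRpS31 was 0.86 ± 0.35 (SE, adjusted p = 0.25 in limma), with an unadjusted p of 0.038.

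On the control diet no gene passed the test of knockdown against wild type either. In the filtered test 0 of 8 genes were called in limma and 1 had an unadjusted p under 0.05, where the background was 3.02% higher and 2.6% lower. That gene was mRpS5, whose bacterial counterpart lines the messenger RNA entry channel, with a log2 change of 0.23 ± 0.11 (SE, adjusted p = 0.26 in limma). Without the filter 0 of 71 were called and 7 had an unadjusted p under 0.05, against 1.35% called higher and 1.14% lower among all genes. Most of the log2 changes lay below 0, 52 of 71, with a median of -0.06, beside 6196 of 9696 and a median of -0.02 for all genes. In the filtered test 5 of 8 lay below 0, but the direction turned with the fit: without the barcode-set term 0 did, with a median of 0.26 beside 0.11 for all genes, and with median-of-ratios scaling 2 did. The summed value was 1.17 times the wild-type sum over all libraries and 0.964 times within the shared set.

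On high sugar, by contrast, many of these genes differed between the knockdown and wild type, as did many other genes. In either direction 60.6% of all genes in the filtered test were called, and 41.1% without a filter. In the filtered test 5 of 8 genes were higher and 1 was lower in the knockdown, where 27.2% of all tested genes were called higher and 33.4% lower. Without the filter 35 of 71 were higher and 4 lower, against 18.9% and 22.2% of all 9696 genes. The median log2 change of the 71 was 0.31, beside -0.02 for all genes. Both knockdown libraries lay above all 6 wild-type high-sugar libraries at 37 of the 71 genes and below them at 1, mRpS30, against a background of 19.3% above and 22.4% below. Within the shared set these counts were 45 above and 6 below, against 24.5% and 35.7%. The 37 include mRpL9, close to 0 in every library, and mRpL48, close to 0 in the first knockdown replicate on high sugar. By subunit, 21 of 45 large-subunit and 14 of 26 small-subunit genes were called higher without the filter, with 3 and 1 called lower.

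The gene with the largest rise was mRpS21, a small-subunit protein with a bacterial counterpart. It was listed at 1.04, 1.70 and 1.96 FPKM in the shared-set and at 0.99, 0.69 and 0.70 FPKM in the own-set wild-type libraries on high sugar. The knockdown libraries on high sugar held 4.19 and 7.31 FPKM, above all other libraries, and those on the control diet 1.32, 1.92 and 2.32 FPKM. In the fit mRpS21 was higher in the knockdown on high sugar by 1.34 ± 0.19 (SE) on the log2 scale, with an adjusted p of 3.6e-05 in limma. Of its 475 annotated exonic bases, 228 also belong to CG8870 on the opposite strand.

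The large-subunit genes mRpL30 and mRpL52 followed. The first has a bacterial counterpart and the second is particular to mitochondrial ribosomes. Wild-type high-sugar libraries held 1.12, 1.22, 0.85, 0.49, 0.48 and 0.63 FPKM of mRpL30, the first 3 of them from the shared set, and the knockdown libraries held 2.55 and 3.58 FPKM. The same 6 wild-type libraries held 1.23, 1.69, 1.49, 0.89, 0.61 and 0.49 FPKM of mRpL52, and the knockdown libraries 3.43 and 4.12 FPKM. Neither gene's groups overlapped, though mRpL30 counts as measured and passed the filter only through the knockdown high-sugar libraries. The log2 changes were 0.99 ± 0.13 (SE) for mRpL30 and 0.95 ± 0.13 (SE) for mRpL52.

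The small-subunit genes mRpS5 and mRpS16, both with bacterial counterparts, rose as well. For mRpS5, the most strongly expressed of the 72 by the mean over the groups, the wild-type high-sugar values were 2.52, 2.46 and 1.95 FPKM in the shared set and 1.31, 0.96 and 0.99 FPKM in the own set. The knockdown libraries stood at 4.67 and 4.17 FPKM on high sugar and at 2.61, 2.64 and 2.56 FPKM on the control diet. For mRpS16 the wild-type values on high sugar were 1.39, 1.35, 1.06, 0.96, 0.60 and 0.66 FPKM, and the knockdown values 2.44 and 3.14 FPKM. Again no library of one genotype reached into the range of the other. The log2 changes were 0.72 ± 0.12 (SE) for mRpS5 and 0.71 ± 0.15 (SE) for mRpS16.

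One of the measured genes went the other way. This was mRpL33, a short large-subunit protein whose bacterial counterpart sits near the exit site for transfer RNA. In the shared set it was listed at 3.27, 3.22 and 2.76 FPKM in control-fed wild type, at 2.30, 3.10 and 4.38 FPKM in wild type on high sugar and at 2.57, 2.43 and 3.03 FPKM in the knockdown on the control diet. The knockdown libraries on high sugar held 1.47 and 1.43 FPKM, below all 9 of those. The own-set wild-type libraries, at 0.95, 1.29 and 1.3 FPKM on the control diet and 1.55, 0.85 and 1.32 FPKM on high sugar, overlapped with them. The log2 change was -0.77 ± 0.17 (SE, adjusted p = 0.0011 in limma) with the barcode set in the fit and -0.31 ± 0.36 (SE, adjusted p = 0.49 in limma) without it. In the shared set alone, which needs no such term, it was -0.77 ± 0.19 (SE, adjusted p = 0.0054 in limma).

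The 2 remaining measured small-subunit genes were in the filtered test and were not called. The head protein mRpS7 stood at 0.79 to 1.38 FPKM in wild type on high sugar and at 1.28 and 1.20 FPKM in the knockdown, with a log2 change of -0.00 ± 0.12 (SE). The mitochondria-specific mRpS31 varied widely among replicates, from 0.27 to 2.56 FPKM over the wild-type high-sugar libraries alone, against 0.72 and 0.88 FPKM in the knockdown. A low-level small-subunit gene, mRpS18B, had a like spread, from 0.03 to 2.45 FPKM over all libraries.

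The 4 measured genes outside the filtered test were all large-subunit genes, and each counts as measured only through the knockdown on high sugar. Their higher values in that group are therefore in part a product of the limit. Both knockdown libraries exceeded every wild-type high-sugar library for mRpL23, at the exit of the peptide tunnel, with 2.12 and 2.79 FPKM against 0.57 to 1.07 FPKM. The same held for the stalk-base gene mRpL10, with 1.68 and 2.12 FPKM against 0.28 to 0.95 FPKM, and for mRpL24, another tunnel-exit protein, with 1.75 and 1.77 FPKM against 0.52 to 1.02 FPKM. Groups overlapped for mRpL42, which has no bacterial counterpart, with 1.13 and 2.46 FPKM against 0.46 to 1.19 FPKM. In the test without a filter mRpL23, mRpL10 and mRpL24 were called higher and mRpL42 was not (adjusted p = 0.08 in limma).

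**Figure D2:**
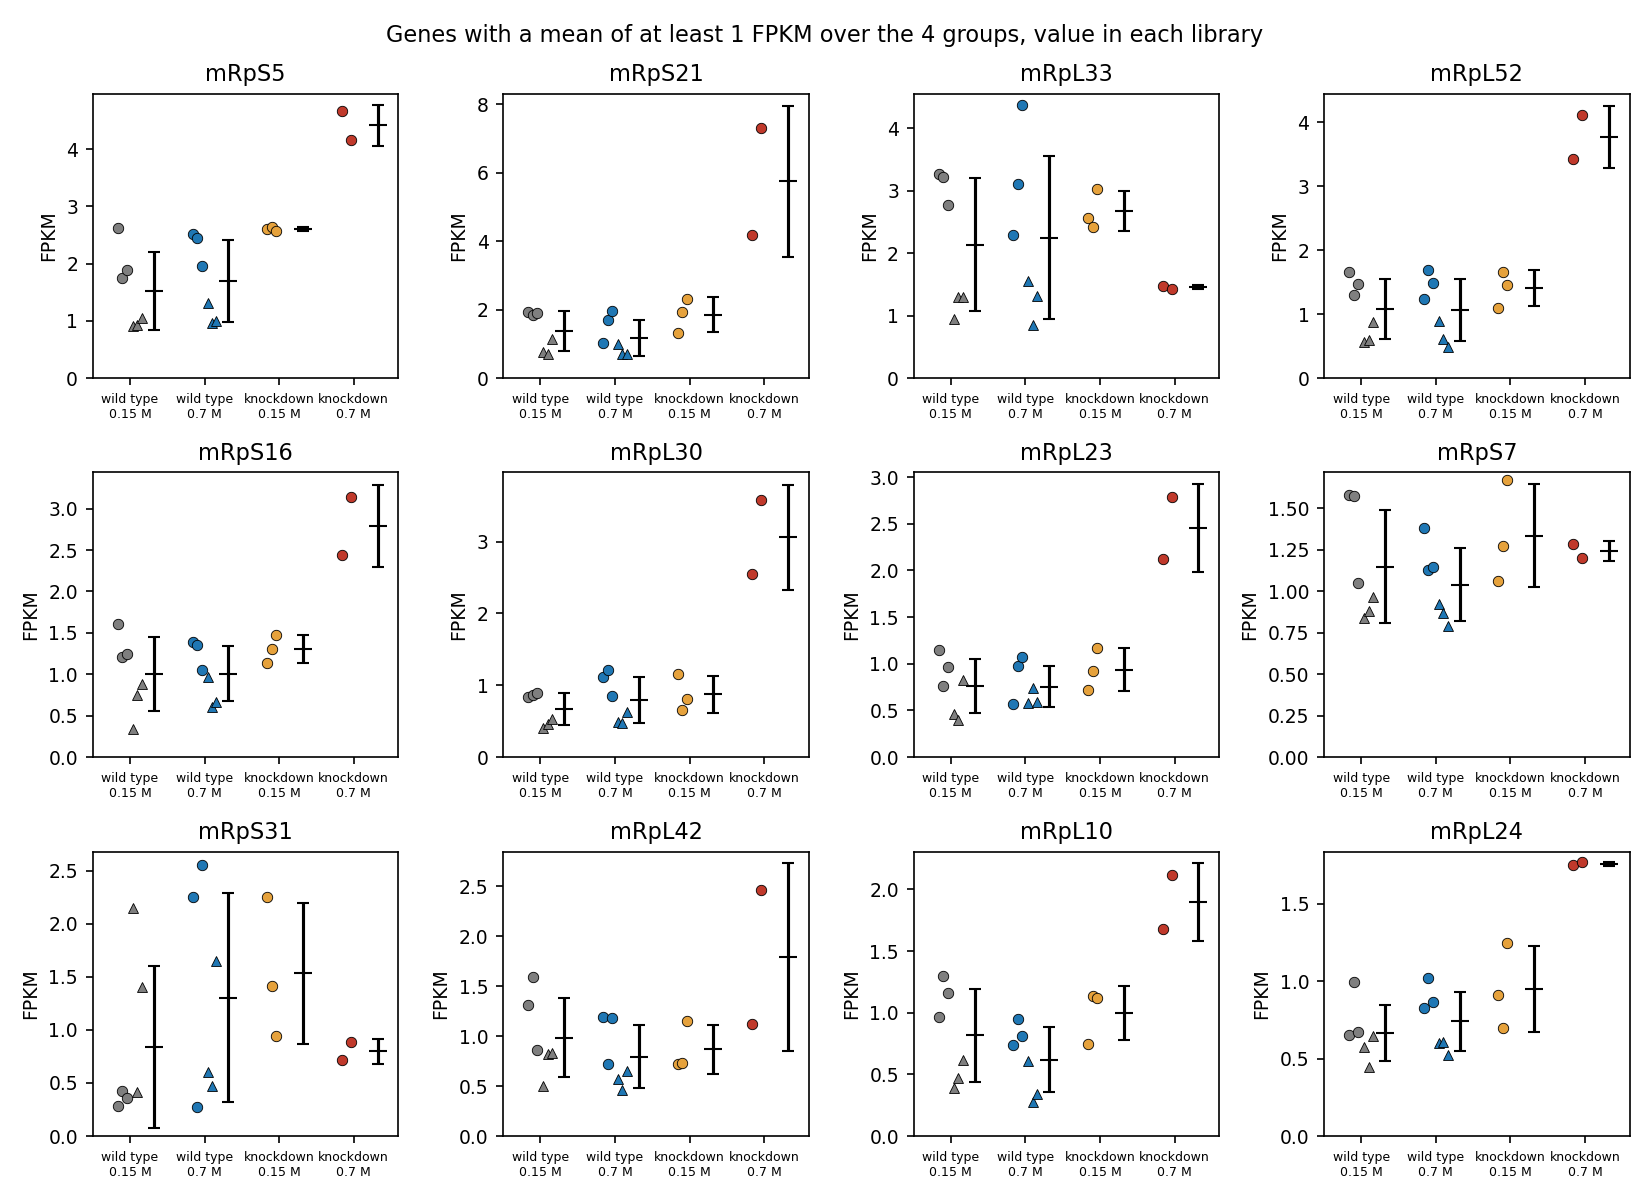
Value in FPKM of the 12 genes with a mean of at least 1 over the 4 groups, in each of the 17 libraries, each panel on its own axis starting at 0. Circles are shared-set and triangles own-set libraries, and bars give the mean and SD. In 8 panels both knockdown libraries on 0.7 M sucrose exceed all wild-type libraries on that diet. In the panels of mRpL33, mRpS7, mRpS31 and mRpL42 the groups overlap. Among those 8 genes, mRpL10, mRpL23, mRpL24 and mRpL30 count as measured only through the knockdown on 0.7 M sucrose.

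Among the 60 genes below the limit, of which mRpL53 was not tested, 27 were called higher and 3 lower without the filter. The shares of all 9696 genes were 18.9% and 22.2%, and shares by transcript length are given below. The mitochondria-specific mRpL41 stood at 0 in all 3 own-set and at 0.362 to 0.551 FPKM in the shared-set wild-type libraries on high sugar, and at 1.25 and 1.29 FPKM in the knockdown. The genes called lower were mRpL13, mRpL37 and mRpS30. Both knockdown libraries on high sugar were listed at 0 for mRpL13, as were the 3 own-set wild-type libraries, while the shared-set ones held 0.366 to 0.473 FPKM; 236 of its exonic bases also belong to CG10602 on the same strand. The calls of mRpL45 and mRpL48 as higher each came from a single library, with 0.688 and 0.205 FPKM in the second knockdown replicate and at most 0.00346 FPKM in the first.

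**Figure D3:**
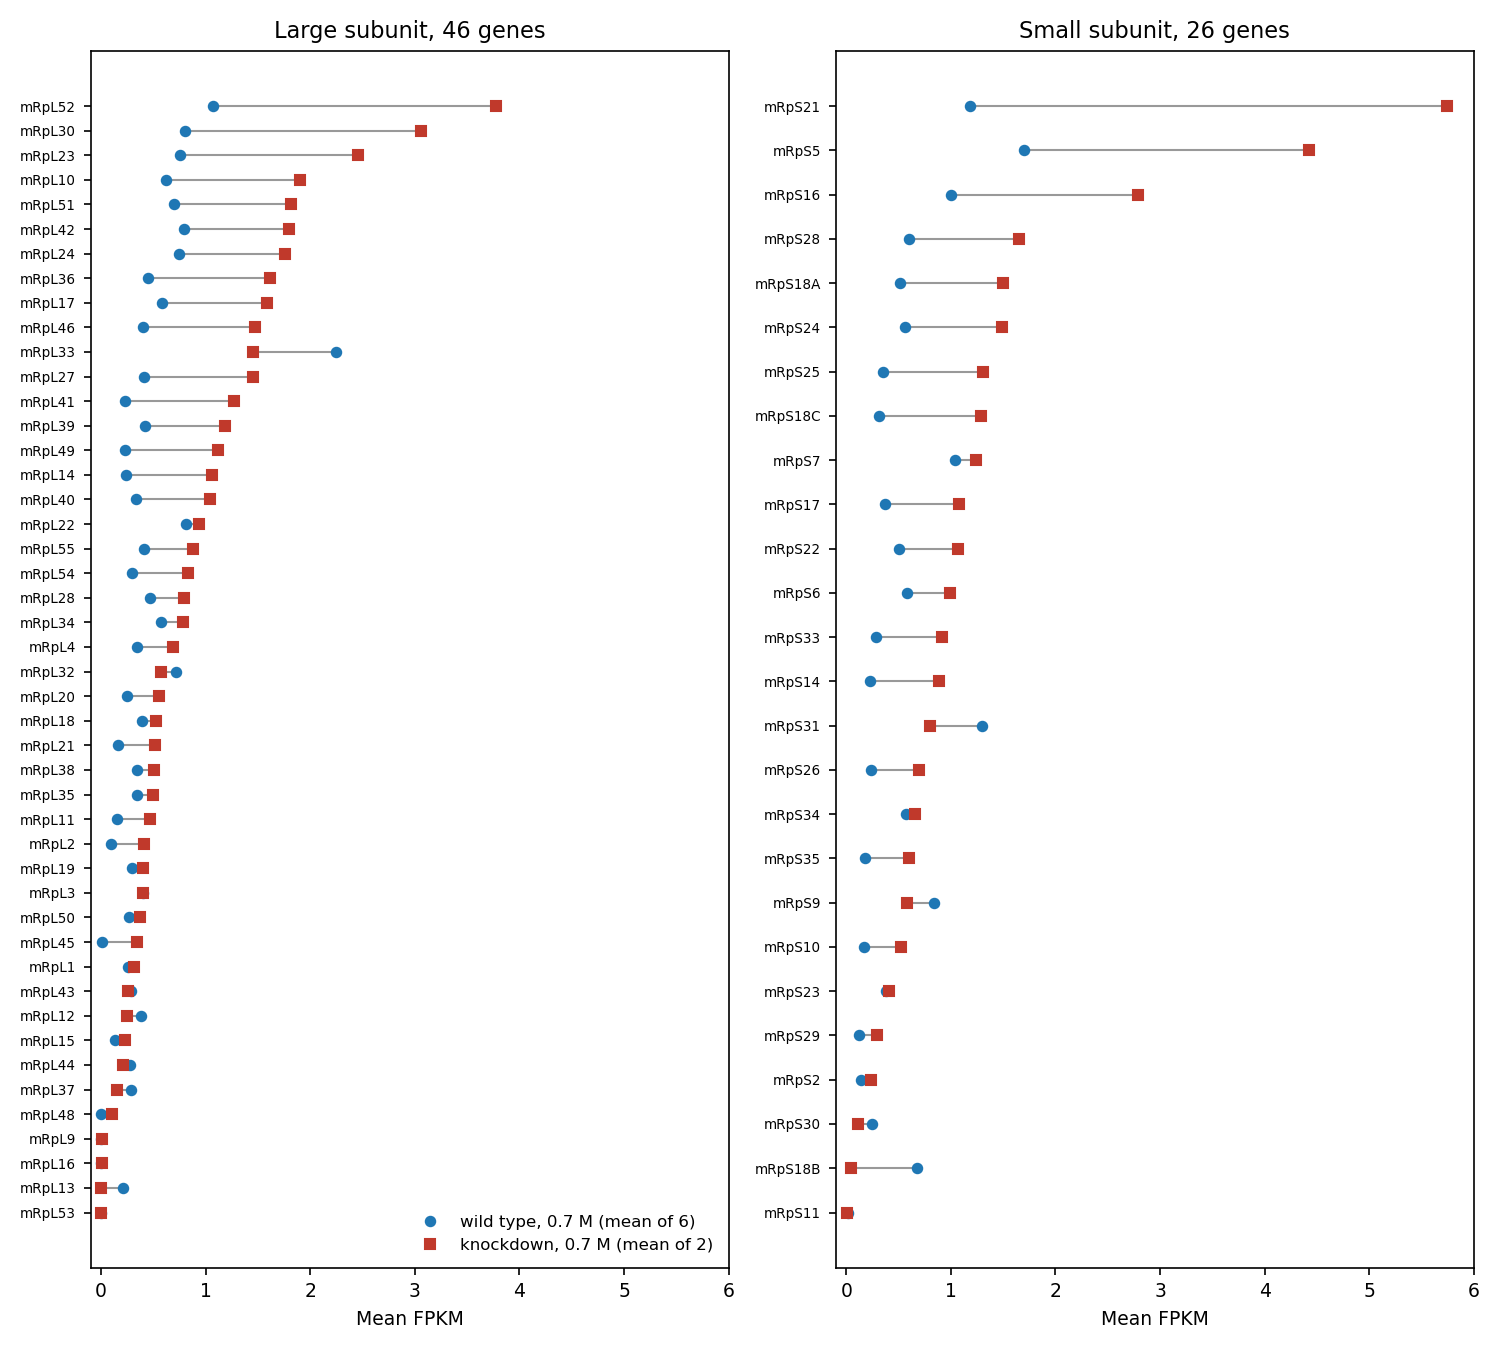
Mean FPKM on 0.7 M sucrose of all 72 genes in wild type (blue circles, mean of 6 libraries) and in the ChREBP knockdown (red squares, mean of 2), by subunit and sorted by the knockdown mean. The knockdown means lie to the right for most genes, with mRpS21, mRpS5 and mRpL52 the farthest out, and to the left for mRpL33, mRpS31 and mRpS18B among others.

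The diet comparison within the knockdown shares its high-sugar libraries with the one above. With the filter, 5 of 8 genes were higher on high sugar and 1 lower, where 29.2% of all genes were called higher and 31.1% lower. Without the filter 43 of 71 were higher and 3 lower, against 20.7% and 20.6%. The changes were 1.22 ± 0.20 (SE) for mRpS21, 1.11 ± 0.14 (SE) for mRpL30, 0.99 ± 0.14 (SE) for mRpL52, 0.72 ± 0.15 (SE) for mRpS16, 0.59 ± 0.13 (SE) for mRpS5 and -0.58 ± 0.18 (SE) for mRpL33, all on the log2 scale. In limma the call of mRpS5 was lost with all libraries scaled to the same total (adjusted p = 0.053) and without the barcode-set term (adjusted p = 0.11), that of mRpL33 with median-of-ratios scaling (adjusted p = 0.093) and without that term (adjusted p = 0.25), and that of mRpS16 with the length trend removed (adjusted p = 0.32). Without the filter the other 2 genes called lower were mRpL13 and mRpS18B. Both knockdown libraries on high sugar lay above all 3 on the control diet at 44 of the 71 genes and below them at 8, against 25.5% and 29.0% of all genes.

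The interaction, the effect of sugar in the knockdown minus that in wild type, passed the test for the same 6 genes. It was positive for 5 and negative for 1 of the 8, where 23.5% of all genes had a positive and 28.3% a negative call. The estimates were 1.34 ± 0.24 (SE) for mRpS21, 1.01 ± 0.17 (SE) for mRpL30, 1.00 ± 0.16 (SE) for mRpL52, 0.70 ± 0.18 (SE) for mRpS16, 0.49 ± 0.15 (SE) for mRpS5 and -0.61 ± 0.21 (SE) for mRpL33. Without the filter 31 of 71 interactions were positive and 3 negative, against 15.5% and 16.2%. Without the barcode-set term only 3 of the 8 were called, all positive, where 351 of all 2383 genes had a positive and 482 a negative call. In the shared set alone mRpS5 and mRpL33 were not called (adjusted p = 0.068 for each in limma), and with the length trend removed mRpS16 was not (adjusted p = 0.53 in limma).

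These are short genes, and the values followed transcript length. The median annotated length was 739.5 bases, from 327 to 1953.5, against 1354.5 bases for the genes of the filtered test and 1831 bases for all genes above 0. In the comparison of knockdown and wild type on high sugar, without a filter, 39.2% of all genes under 600 bases were called higher and 7.33% lower. Of the 15 mitochondrial ribosomal protein genes of that length 10 were higher and 1 lower. Between 600 and 1000 bases the shares of all genes were 36.3% and 9.66%, and of 37 mitochondrial ribosomal protein genes 18 were higher and 1 lower. Above 1000 bases they were 14.8% and 26.0%, and of 19 genes 7 were higher and 2 lower.

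Removing each library's trend of value with length left a more even set of calls. Without the filter 17 of 71 genes were then higher and 17 lower in the knockdown on high sugar, against 29.2% and 20.3% of all genes, and the median log2 change fell to 0.05, beside 0.04 for all genes. Of the 35 genes called higher before, 17 remained higher, and 1, mRpL48, was called lower. As deposited, both knockdown values of mRpL48 lay above all wild-type high-sugar values. Of the 4 called lower, 3 remained so, mRpL13, mRpL33 and mRpL37. The additional calls of mRpL9 and mRpL16 as lower come from the correction alone, since neither exceeded 0.01 FPKM anywhere. The other additional calls of lower were also absent before the correction, and whether they reflect falls in expression was not tested. In the filtered test mRpS5, mRpS21, mRpL30 and mRpL52 remained higher and mRpL33 remained lower. The call of mRpS16 was lost (0.15 ± 0.16, SE, adjusted p = 0.45 in limma). The gene mRpS7, not called before, was now called lower (-0.43 ± 0.13, SE, adjusted p = 0.009 in limma). Of all filtered genes 25.3% were called higher and 28.8% lower. The log2 ratio of the summed values of the knockdown and wild type on high sugar went from 1.14 to 0.62.

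**Figure D4:**
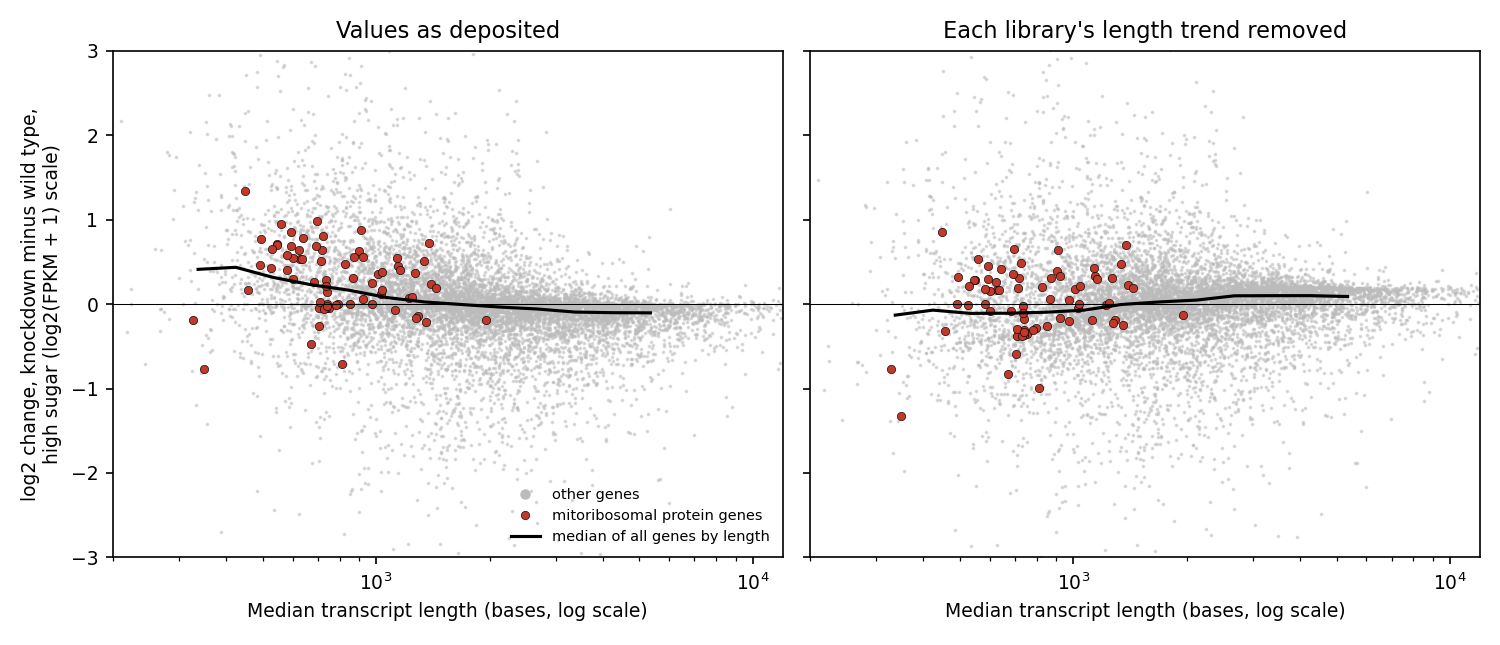
Log2 change between ChREBP knockdown and wild type on 0.7 M sucrose, on the log2(FPKM + 1) scale, against median annotated transcript length in bases (log axis), as deposited (left) and with each library's length trend removed (right). Grey points are other genes, red points the 71 mitochondrial ribosomal protein genes above 0 and the black line the median of all genes by length; the red points lie mostly above 0 on the left and on both sides of it on the right. A few grey points beyond 3 in either direction are outside the axes.

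The messenger RNAs that this ribosome translates were higher as well. All 13 protein-coding genes of the mitochondrial genome were called higher in the knockdown on high sugar, against 27.2% of all 2383 genes. The list of these 13 was drawn up after values had been seen. Their median log2 change was 1.74, beside -0.08 for all genes. Their summed value was 4253 and 5333 FPKM there, against 895 to 1749 FPKM in wild type on high sugar. In the knockdown on the control diet it was 2178 to 2820 FPKM, above all wild-type libraries, whose highest was 1855 FPKM. The cytochrome oxidase subunit gene CoI averaged 370 FPKM in wild type and 1262 FPKM in the knockdown on high sugar. On the control diet 2 of 13 were called higher in the knockdown, against 3.02% of all genes. These were ND1 by 1.09 ± 0.25 (SE) and ND3 by 0.72 ± 0.20 (SE), both subunits of complex I. In the shared set alone 0 of 13 were called higher on that diet, where 50 of all 2383 genes were. It was 1 of 13 with the length trend removed (80 of 2334 genes) and 3 of 13 with median-of-ratios scaling (94 of 2383 genes). With the length trend removed, and over the filtered genes, ATPase8, ND4L and ND6 were no longer called on high sugar.

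Among 49 tested nuclear genes of respiratory complexes I to IV, 23 were higher and 4 lower in the knockdown on high sugar, with a median of 0.50, against 27.2% and 33.4% of all filtered genes. The complex I genes ND-AGGG and ND-B12 rose by 1.40 ± 0.16 (SE) and 1.57 ± 0.18 (SE). The cytochrome c gene Cyt-c-p fell by 0.63 ± 0.22 (SE) on the log2 scale, and the other 3 called lower were ND-B14, UQCR-Q and COX7A. Of 77 tested genes of the cytosolic ribosome 46 were higher and 11 lower, with a median of 0.74. With the length trend removed, 15 of the 49 respiratory genes were higher and 11 lower, with a median of 0.18. Of the 77 cytosolic ribosomal genes 24 were then higher and 14 lower, with a median of 0.29. The shares of all filtered genes were 25.3% higher and 28.8% lower in that fit. On the control diet 0 of these 49 and 0 of these 77 genes were called in limma in the knockdown, with 2 and 4 at an unadjusted p under 0.05.

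Other parts of the mitochondrial translation apparatus, tested without a filter because of their low values, had calls in both directions, against 18.9% higher and 22.2% lower among all genes. Of 4 mitochondrial ribosomal proteins that carry other names, tko and CG6094 were higher and 2, bonsai and CRIF, were not called. The first, the small-subunit protein in which a mutation gives the bang-sensitive technical knockout phenotype, stood at 0.334 FPKM in wild type and 1.24 FPKM in the knockdown on high sugar, a log2 change of 0.75 ± 0.11 (SE). Of 10 translation factors 3 were higher and 1 lower. Elongation factors mEFTu1, which brings transfer RNA to the ribosome, and mEFTs, which recycles it, rose by 0.56 ± 0.07 (SE) and 0.50 ± 0.08 (SE), and the ribosome recycling factor mRRF1 fell by 0.44 ± 0.11 (SE). Of 14 mitochondrial aminoacyl-tRNA synthetases 0 were higher and 4 lower, namely AsnRS-m, AspRS-m, CysRS-m and IleRS-m.

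Of 14 genes that copy or transcribe mitochondrial DNA or process its RNA, 3 were higher and 2 lower in the same test, to be read against those shares of all genes. Both subunits of the mitochondrial DNA polymerase, PolG1 and PolG2, were among the former, and the transcription factor mtTFB2 was among the latter. In the filtered test 0 of 7 genes for import and folding of mitochondrial proteins were higher and 4 lower: Tim8, Tim10, Tim17b and Tim23, the last a core subunit of the inner-membrane translocase, by -1.15 ± 0.19 (SE). Without the filter 3 of 12 were higher and 4 lower. In the filtered test with the length trend removed 0 of 7 were higher and 7 lower. The shares of all genes were then 25.3% higher and 28.8% lower. Of 11 regulators of mitochondrial biogenesis and growth 6 were lower and 0 higher without a filter. Among them Thor, the fly 4E-BP that restrains cap-dependent translation, averaged 165 FPKM in wild type and 19.0 FPKM in the knockdown on high sugar. Its log2 change in the filtered test was -3.49 ± 0.21 (SE).

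**Figure D5:**
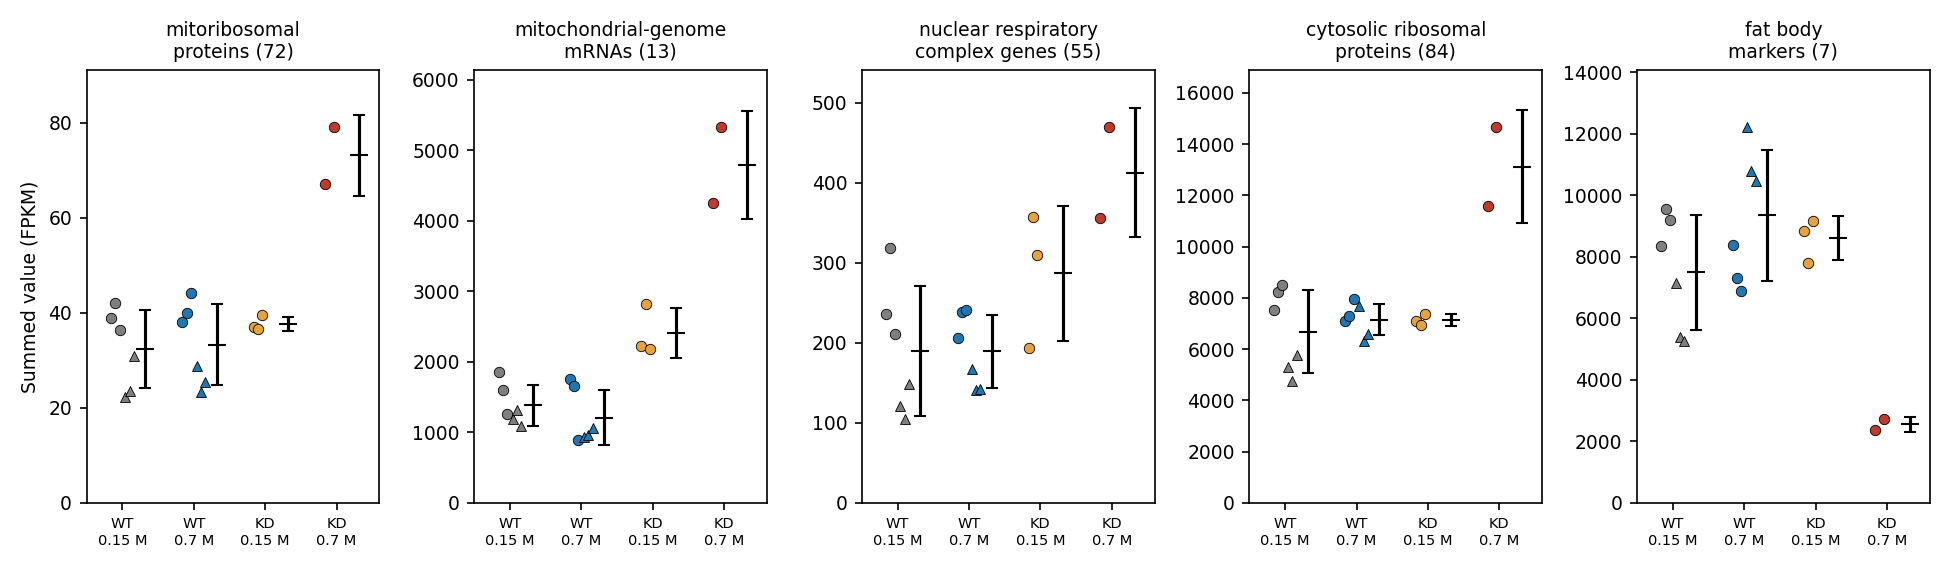
Summed FPKM in each library of the mitochondrial ribosomal protein genes, the 13 mitochondrial-genome messenger RNAs, nuclear genes of respiratory complexes I to IV, cytosolic ribosomal protein genes and fat body markers, by genotype (WT wild type, KD knockdown) and sucrose concentration. Circles are shared-set and triangles own-set libraries with mean and SD; the first 4 sums average highest and the fat body marker sum lowest in the knockdown on 0.7 M sucrose.

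Marker lists of fat body and other tissues were compared in the same 2 libraries. Among all filtered genes, 27.2% were called higher and 33.4% lower there. With the filter, 6 of 7 fat body markers were lower in the knockdown on high sugar, with a median log2 change of -2.59. Of 8 midgut markers 6 were higher, with all 12 above 0 in both libraries and a sum of 220 and 284 FPKM against 1.21 to 120 FPKM in the other 15. The 10 salivary glue genes summed to 6583 and 6802 FPKM against 5.58 to 6053 FPKM elsewhere, with 1 higher and 1 lower. Muscle markers summed to 10.8 and 17.5 FPKM against 2.70 to 13.4 FPKM, with 2 of 3 higher, and cuticle markers to 81.7 and 164 FPKM against 0 to 90.2 FPKM, with 2 of 4 higher. Hemocyte markers, at 193 and 445 FPKM against 20.6 to 316 FPKM, had 1 of 3 higher. For the muscle, cuticle and hemocyte markers, 1 of the 2 sums thus lay inside the range of the other 15 libraries. The 4 gonad markers summed to 0.00125 and 0.000717 FPKM against 0 to 0.0928 FPKM, 1 of them being above 0 in both libraries and 2 at 0 in all 17. The count of midgut markers called higher varied with the fit. In the shared set alone it was 2 of 8, where 677 of all 2383 genes were higher. With median-of-ratios scaling it was 8 of 8, where 909 of all 2383 genes were. The part of all these tissues in the difference of the mitochondrial ribosomal protein genes was not tested.

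The barcode sets themselves differed. In wild type the summed value averaged 39.1 FPKM in the shared and 25.5 FPKM in the own set on the control diet, and 40.7 and 25.8 FPKM on high sugar. On each diet 47 of the 71 genes had a lower own-set than shared-set mean in wild type, where the share of all genes was 52.5% for the control diet and 59.5% for high sugar. Between 53 and 70 of the 72 genes were above 0 in an own-set library, 69 or 70 in a shared-set wild-type library and 58 to 67 in the knockdown on the control diet. The 2 knockdown high-sugar libraries had 70 and 69 above 0.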

How the data were processed

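The authors deposited 1 matrix with a column per library. Per the submitters' processing notes the tools were Bowtie 0.12.7, TopHat 1.3.2 and Cufflinks 1.1.0 with build dm3; their options are not given in the sources used here. The deposited values are read as FPKM, which Cufflinks estimates from aligned fragments, as the authors' header names no unit; an unstated rescaling is possible. They are not whole multiples of a read's worth, so depth is unknown and no counting interval is given. No 2 columns were identical.

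Values were tested as log2(FPKM + 1) with limma 3.58.1 in R 4.3.3, trended and robust. The design held 4 groups and the barcode set, the filter was a mean of at least 1 FPKM over 17 libraries, and Benjamini-Hochberg adjustment ran over all tested genes within each of 5 comparisons, with a threshold of 0.05. All knockdown libraries are in the shared set, so the set term rests on wild type. Lengths and exon overlaps came from Ensembl release 115, a later build than the matrix, so no coordinates are given; 72 of 72 genes and 97.9% of the filtered genes had a length. Loess with span 0.5 removed the length trend. The fit was tested on simulated data. Alternatives were other scalings, pseudocounts, filters and designs, and leaving out each library.

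The members and lists were chosen with earlier results of these data known. Named in full are measured genes called in any comparison, the 5 highest and 5 lowest measured, the 3 largest changes each way, and up to 4 called genes per list; mRpL13, mRpL37, mRpL38, mRpL41, mRpL45, mRpL48, mRpS18B, mRpS30, CoI and Cyt-c-p were picked after their values were seen. All list members given as matched were found by current or older symbol or accession.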

Additional observations from a re-analysis of the deposited data

Results flagged for a closer look

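The effect of high sugar differed between the knockdown and wild type, by limma's interaction test with adjustment over all tested genes, at 6 of the 8 genes in the filtered test. The differences on the log2 scale were 1.34 for mRpS21 (adjusted p = 0.00035), 1.01 for mRpL30 (adjusted p = 0.00019), 1.00 for mRpL52 (adjusted p = 0.00017), 0.70 for mRpS16 (adjusted p = 0.0049), 0.49 for mRpS5 (adjusted p = 0.013) and -0.61 for mRpL33 (adjusted p = 0.025). Every one of them rests on 2 knockdown high-sugar libraries, and 51.8% of all genes tested were called in the same interaction. In 26 groups of 4 to 10 libraries examined for a library apart from the rest, none was found. Neither knockdown group is large enough to be examined that way on its own.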

How the results depend on the processing

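Of the 71 genes tested without a filter, 39 were called in either direction for knockdown against wild type on high sugar. For sugar in the knockdown 46 were called, and for the interaction 34. The shares of all genes were 41.1%, 41.2% and 31.6%. With each library's length trend removed as well, 34, 33 and 26 were called. Of these, 17, 22 and 17 were higher and 17, 11 and 9 lower. The shares of all genes were then 49.5%, 50.2% and 42.9%, so these genes were not called more often than genes in general. In the shared set alone 38, 44 and 29 were called (0 lower in the interaction). With median-of-ratios scaling the numbers were 46, 49 and 41 (2 lower in the first and 1 in the last). With a barcode set by diet term they were 39, 46 and 29 (1 lower in the last). Shares of all genes are not given for these other fits, so their counts have no background here. For sugar in wild type, 1 gene was called higher without a filter when the length trend was removed or the set was crossed with diet. In the filtered test the interaction was called for 3 genes without a barcode set term and for 2 with the length trend removed in the shared set alone. These alternatives without a filter beyond the first, and the last, were added after seeing the data. The causes of these shifts were not tested. A minimum mean of 5 FPKM left none of the genes, so it gives no value.

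The log2 ratio of the summed values was -0.31 for the knockdown on control food and 0.62 under high sugar with the length trend removed. For sugar in the knockdown it was 0.70 with all libraries scaled to the same total, 1.3 with median-of-ratios scaling and 1.3 with the length trend removed. Median-of-ratios scaling moved the median of all genes to 0.25 for sugar in the knockdown, from 0.01, and the same total moved it to -0.17. For the 6 genes called in the filtered test no direction reversed in the 3 comparisons that called them, among 33 alternatives each. Of the 2 not called, median-of-ratios scaling moved both for knockdown against wild type on high sugar. It took mRpS7 from -0.00 to 0.24 and mRpS31 from -0.17 to 0.04. With the length trend removed mRpS7 was called lower in that comparison, at -0.43 ± 0.13 (SE, adjusted p = 0.009 in limma). For sugar in the knockdown mRpS7 was then also called lower, at -0.38 ± 0.13 (SE, adjusted p = 0.024 in limma). Leaving out 1 library at a time gave 6 called genes for knockdown against wild type on high sugar, 5 to 6 for sugar in the knockdown, 4 to 6 for the interaction and 0 for the other 2 comparisons. The corresponding log2 ratios of summed values ranged from 1.01 to 1.25, 0.83 to 1.07 and 0.79 to 1.03, and from -0.06 to 0.13 for sugar in wild type and 0.13 to 0.31 for the knockdown on the control diet. Shares of all genes are not given for the fits that leave out a library, so their counts have no background here. Without the second knockdown high-sugar replicate mRpL33 lost its call for sugar in the knockdown (adjusted p = 0.061 in limma), and mRpS16 its interaction (adjusted p = 0.052 in limma). Without the first, mRpS5 lost its interaction (adjusted p = 0.072 in limma). That of mRpL33 was lost in 10 of its 33 alternatives, among them without either of these and without the third knockdown control-diet replicate. Where 1 knockdown high-sugar library remains, it is assumed to vary like the libraries of the other groups.

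Replicate numbers gave no sign of pairing. Each library's deviation from the mean of its group and barcode set was correlated with those of libraries in other groups of that set. Same-numbered pairs correlated at -0.24 to 0.22, above 0.1 in 5 of 18 pairs. Other pairs correlated at -0.39 to 0.36, above 0.1 in 12 of 36 pairs. With so few libraries behind each mean these correlations are partly fixed in advance, so they are a weak check of pairing. With the replicate number as a block 6, 6 and 5 genes were called in the 3 comparisons above and 0 in the others.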
